A study of Homo sapiens with 6 samples.

Results

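The S100 calcium-binding proteins described here are the 8 genes S100a1, S100a4, S100a6, S100a10, S100a11, S100a13, S100a16 and S100b, taken by gene symbol from the count files. All 8 were found among the 38986 gene symbols of the files and all 8 were among the 12938 genes tested. RNA was sequenced from 6 libraries. Of these, 3 are labelled as 293T cells, a human embryonic kidney line, with wild-type STAT6 overexpressed, and 3 as 293T cells with Mock, the control with genotype WT. Both groups were mCherry-positive, grown alike in DMEM with serum, and differ in the labels only by STAT6, a transcription factor of interleukin signalling. Whether the numbered libraries stand for separate cultures is not said, so each p-value reflects only the spread among these libraries, which may be technical.

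S100 proteins are small calcium sensors with a pair of EF-hand loops that mostly work as dimers. On binding calcium they expose a surface that grips partner proteins such as annexins, myosin heavy chains and p53, and several are also secreted and bind receptors such as RAGE and TLR4. S100B is a long-used marker of the melanocyte lineage and of glia, and is used as a marker of melanoma.

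The files go against the labels in 2 ways that touch every result below. They hold mouse gene symbols, with no row named STAT6 and 1 row named Stat6, and Stat6 ran opposite to the overexpression that the labels name. It measured 35.1, 33.6 and 32.1 CPM in the libraries labelled STAT6, against 95.2, 95.5 and 92.8 CPM in Mock (log2 fold change -1.49, SE 0.04, adjusted p = 7.468e-26 by edgeR). Directions below therefore follow the labels alone. CPM here divide each count by a library total adjusted with TMM, and the libraries held 19894773 to 23648304 counts where labelled STAT6 and 22368757 to 29802693 where labelled Mock. Of all tested genes 72.6% passed the threshold of an adjusted p of 0.05, 35.8% as higher and 36.8% as lower.

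Marker genes of pigment cells were abundant in all libraries and those of kidney epithelium were nearly absent, so the labelled cell type was not borne out by its markers. The 7 pigment cell markers summed to 16705 to 16841 CPM in the libraries labelled STAT6 and to 14404 to 14750 CPM in Mock, 4 of them being called higher and 2 lower. All counts of called markers here stand beside 35.8% of all tested genes called higher and 36.8% called lower. Among them Sox10, a lineage transcription factor, was higher (log2 fold change 0.53, adjusted p = 7.015e-17) and the pigment enzyme gene Tyr was lower (-3.38, adjusted p = 5.407e-38). The 6 kidney markers summed to at most 0.103 CPM in a library labelled STAT6 and at most 0.0431 CPM in one labelled Mock, and 3 of them had no count anywhere. Fibroblast markers summed to 78.6 to 84.9 CPM against 18.8 to 20.7 CPM in Mock, with 1 called higher and 1 lower of 3 tested. Col1a1 held most of this sum in the libraries labelled STAT6 (78.7 CPM against 4.85 in Mock), while Dcn and Lum had no count in them. Col1a2, which held most of the sum in Mock, ran the other way, at 2.14 CPM against 13.4 in Mock (log2 fold change -2.64, adjusted p = 7.578e-20, edgeR). Schwann cell markers summed to 478 to 482 CPM against 723 to 753 CPM in Mock, mainly Mbp, with 1 called higher and 2 lower of 4 tested. Leukocyte markers (3.63 to 4.12 against 1.16 to 1.43 CPM in Mock, Lyz2 called higher, Cd3e and Adgre1 at 0) were scarce. So were keratinocyte markers (3.45 to 4.85 against 1.01 to 2.72 CPM in Mock, Krt14 called higher, Krt10 at 0). Endothelial markers (0.588 to 1.03 against 0 to 0.262 CPM in Mock, none tested, Cdh5 at 0) were scarce as well. Cd68 and Krt5 passed the filter on low counts only through the libraries labelled STAT6, where they were higher on average. Both are left out of these calls, though not of the sums. The part of these markers in the S100 results was not tested, and in bulk libraries fewer cells of a type and less RNA per cell cannot be told apart.

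S100 transcripts were more abundant in the libraries labelled STAT6, led by S100a6 and S100b. S100a16 passed the filter on low counts only through the libraries labelled STAT6, where it was high, and is left out of the counts that follow. Of the other 7 genes 6 rose, where 35.8% of all tested genes were called higher, and 1 fell, S100a4, where 36.8% were called lower. The median log2 fold change over these 7 genes was 1.24, beside -0.00 over all tested genes. A test for a change beyond 1.5-fold (edgeR's glmTreat) called 5 of the 7, all of them higher, against 21.5% of all genes in either direction. Together the 8 genes held 0.0854% ± 0.00103 of all counts in the libraries labelled STAT6 and 0.0311% ± 0.00124 in Mock (SD, n = 3 each), a ratio of 2.75. The 6 genes that rose had no overlap between the groups, as had 36.9% of all tested genes in that direction, and S100a4 overlapped.

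**Figure D1:**
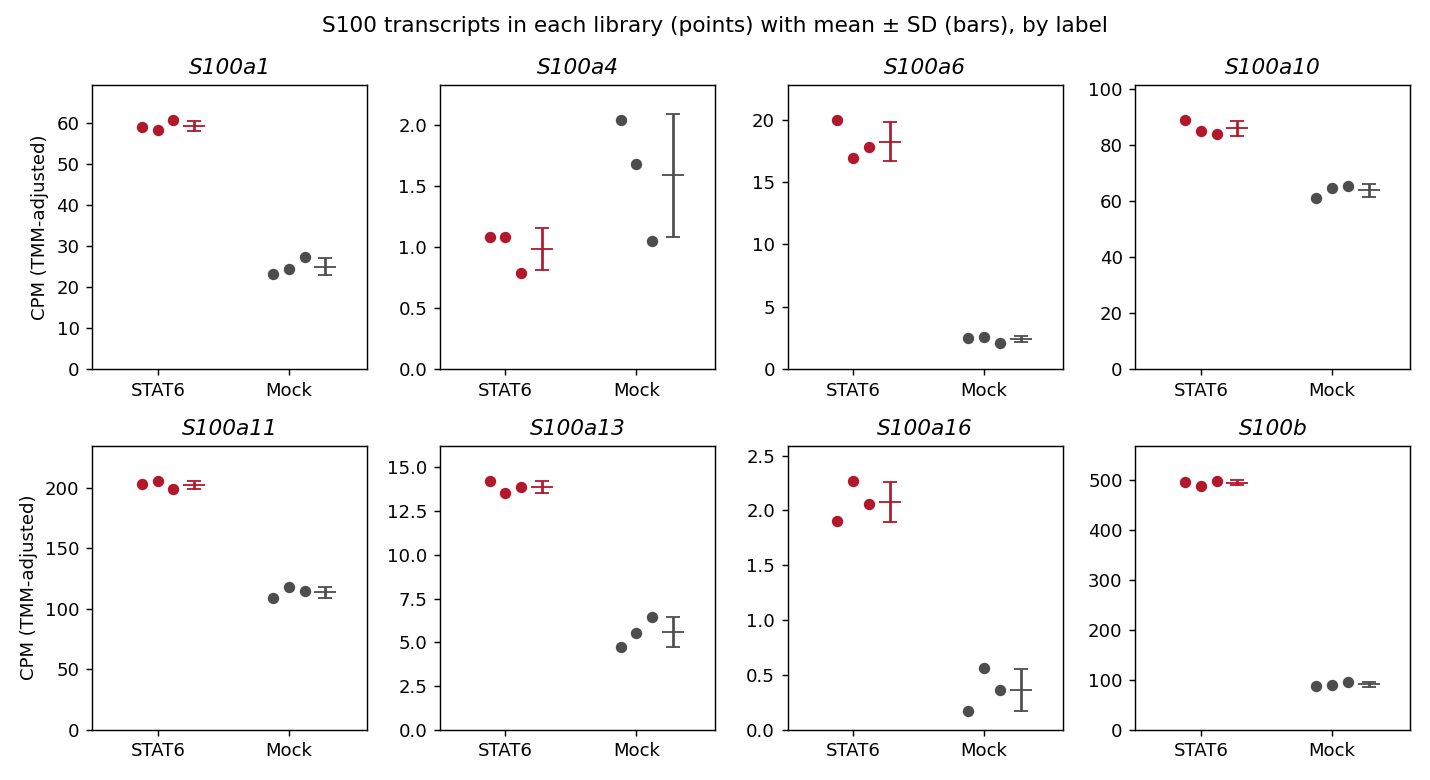
TMM-adjusted CPM of the 8 S100 genes, 1 panel per gene with its own axis from 0, in the 3 libraries labelled STAT6 and the 3 labelled Mock (points), with mean ± SD beside them. The groups are apart in every panel except that of S100a4, where a Mock library at 1.05 CPM lies below 2 of the libraries labelled STAT6 at 1.08 CPM.

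S100b is the member best known from pigment cells and glia, and its protein can pair with that of S100a1. S100b stood at 497, 489 and 498 CPM in the libraries labelled STAT6, against 86.5, 90.04 and 96.0 CPM in those labelled Mock. Every library labelled STAT6 was thus over 5 times the highest Mock library. The log2 fold change was 2.44 (SE 0.04, adjusted p = 1.994e-35, edgeR), the smallest adjusted p of the family. Its libraries varied by 1.04% in the group labelled STAT6 and by 5.26% in Mock (coefficient of variation), where counting alone gives 0.981% and 2.07%.

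S100a1, whose protein regulates calcium pumps and release channels of muscle, was at 59.0, 58.4 and 60.7 CPM in the libraries labelled STAT6, against 23.1, 24.4 and 27.3 CPM in Mock. Its log2 fold change was 1.24 (SE 0.05, adjusted p = 4.302e-21), with a gap between the groups larger than the spread within either. The ratio of S100b to S100a1 counts was 8.43, 8.37 and 8.20 in the libraries labelled STAT6, against 3.74, 3.68 and 3.52 in Mock, not corrected for transcript length. It was higher in all 3 libraries labelled STAT6 than in any Mock library, and the exact permutation test (2-sided) gave p = 0.1, the smallest that 20 assignments allow, or 0.12 adjusted over the 6 pairs of genes compared in this way. The pairs were chosen with the members' values known.

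S100a6, or calcyclin, is a cell-cycle-linked member and had the largest fitted fold change of the 8, with an interval that overlaps that of S100a16. It stood at 19.95, 17.0 and 17.8 CPM in the libraries labelled STAT6, against 2.52, 2.54 and 2.09 CPM in Mock, from 329 to 462 counts and 58 to 64 counts a library. The log2 fold change was 2.95 (SE 0.11, adjusted p = 8.123e-23), or 7.73-fold, at the percentile 97.8 of all tested genes. A separate row named S100a6-s100a7a summed to 1 count in the group labelled STAT6 and to 3 in Mock, so few counts were assigned to that joined transcript.

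S100a4, the metastasis-associated member that binds non-muscle myosin, was the only one of the 8 to fall, and on few counts. It had 25, 21 and 16 counts in the libraries labelled STAT6 and 47, 39 and 32 counts in Mock, or 1.08, 1.08 and 0.784 CPM against 2.04, 1.68 and 1.05 CPM in Mock. The log2 fold change was -0.66 (SE 0.28, adjusted p = 0.03133), and the ratio of summed counts was 0.641 (95% counting interval 0.464 to 0.879, exact). The call was lost with DESeq2 (adjusted p = 0.0775), with limma-voom (0.0835), beyond 1.5-fold (0.629) and on leaving out STAT6 replicate 3 (0.124), Mock replicate 1 (0.200) or Mock replicate 2 (0.0660). The ratio of S100a6 to S100a4 counts was 18.5, 15.7 and 22.8 in the libraries labelled STAT6, against 1.23, 1.51 and 2.00 in Mock (exact permutation test, 2-sided, p = 0.1, adjusted 0.12). These 2 genes are next to each other among the tested genes in human gene order.

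**Figure D2:**
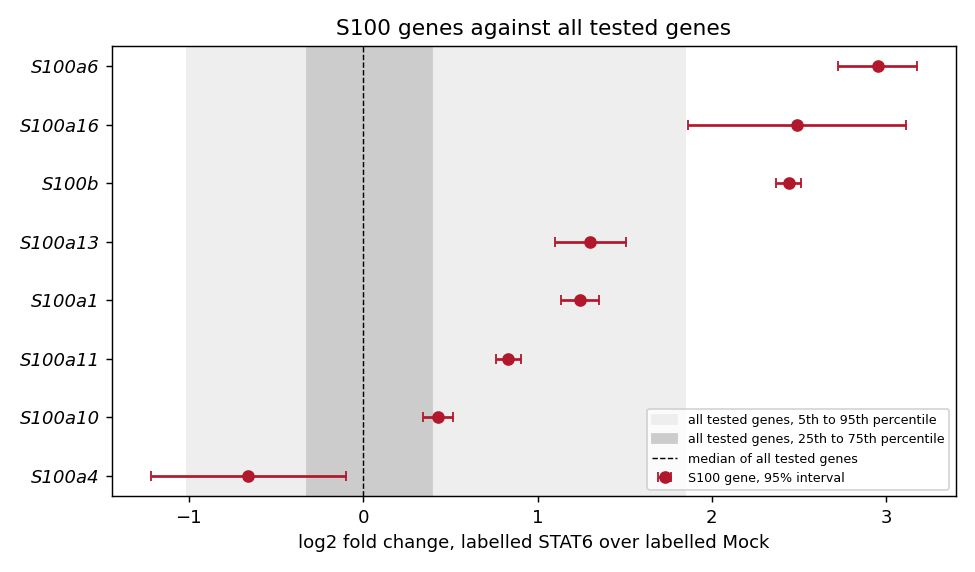
Log2 fold change (labelled STAT6 over labelled Mock) for each S100 gene, with its 95% interval from the quasi-likelihood fit, over bands for the middle of all tested genes. S100a6, S100a16 and S100b lie above the 95th percentile of all genes (1.85), and S100a4 is the only one of the 8 below 0. S100a16 was tested only because of the group in which it was high.

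S100a10 and S100a11 are the annexin-binding members. S100a10, which joins Anxa2 in a complex at the plasma membrane and does not need calcium to do so, was at 88.6, 85.0 and 83.7 CPM in the libraries labelled STAT6, against 60.8, 64.7 and 65.4 CPM in Mock. The difference was small but apart from the spread of both groups, at 0.43 on the log2 scale (SE of 0.04, adjusted p = 2.062e-11), and it did not pass the test for a change beyond 1.5-fold. S100a11, which binds Anxa1 and acts in membrane repair and keratinocyte growth control, was at 203, 205 and 199 CPM against 109, 118 and 115 CPM in Mock. The gene rose by 0.83 in log2 units (SE 0.04, adjusted p = 2.252e-21). In human RefSeq 10 pseudogenes carry the name of S100A11 and 0 that of the other members, and whether the counts of mouse S100a11 share reads with such copies is not known from the files.

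S100a13 and S100a16 are less studied. S100a13, which takes part in the release of the growth factor FGF1, was at 14.2, 13.6 and 13.9 CPM in the libraries labelled STAT6, against 4.73, 5.52 and 6.44 CPM in Mock. The gene rose by 1.30 in log2 units (SE 0.10, adjusted p = 8.018e-14). In human RefSeq the span of S100A13 overlaps those of S100A1 and CHTOP, and that of S100A4 overlaps S100A5. The strand setting of the counting is not given in the sources used here, so reads of such neighbours may not be fully told apart. The ratio of S100a13 to S100a1 counts lay at 0.228 to 0.241 in the libraries labelled STAT6 and at 0.205 to 0.236 in Mock (exact permutation test, 2-sided, p = 0.4, where the smallest possible is 0.1).

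S100a16, a broadly expressed member with weak calcium binding, had 44, 44 and 42 counts in the libraries labelled STAT6 and 4, 13 and 11 counts in Mock. This is 1.90, 2.27 and 2.06 CPM against 0.174, 0.560 and 0.360 CPM in Mock, with no overlap. The log2 fold change was 2.49 (SE 0.31, adjusted p = 6.811e-09), and the ratio of summed counts was 5.66 (95% counting interval 3.74 to 8.85, exact). S100a16 reached the filter on low counts in 3 libraries labelled STAT6 but in 1 labelled Mock, so it was tested only because of the group in which it was high. The Mock libraries varied by 53.1%, where counting alone gives 32.7%.

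The split of S100 counts among the 8 genes changed between the groups. S100b held 56.4% ± 0.421 of their summed counts in the libraries labelled STAT6 and 30.0% ± 0.648 in Mock (SD, n = 3 each). S100a11 held 23.1% ± 0.446 against 37.5% ± 0.831 in Mock, and S100a10 held 9.77% ± 0.234 against 21.0% ± 0.122 in Mock. S100a1 held 6.77% ± 0.144 against 8.23% ± 0.413, and S100a6 2.08% ± 0.159 against 0.789% ± 0.108 in Mock. The shares of a library sum to the whole, so the smaller share of S100a10 and S100a11 goes with a higher level of both.

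**Figure D3:**
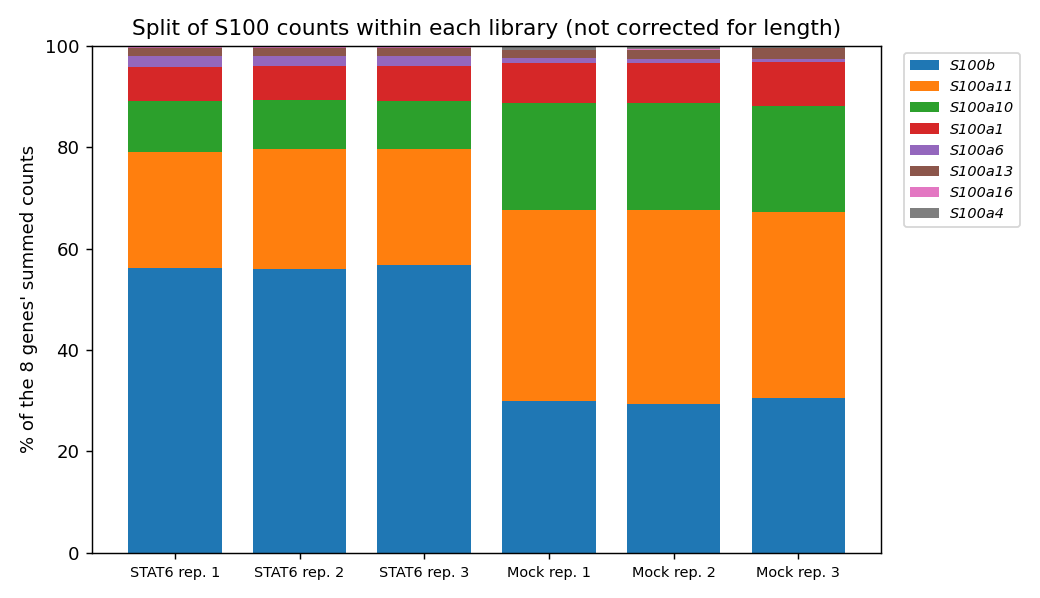
Share of the 8 genes' summed counts held by each gene, as a stacked bar per library, 3 labelled STAT6 and then 3 labelled Mock, without correction for transcript length. S100b takes 56.1 to 56.9% of each bar labelled STAT6 and 29.3 to 30.6% of each bar labelled Mock.

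Other S100 genes were close to undetected. Of the 9 listed, which include the neutrophil alarmins S100a8 and S100a9, 6 had no count in any library, and 0 were tested. A count of 0 allows a level of up to 0.127 to 0.151 CPM in a library labelled STAT6 and 0.101 to 0.134 CPM in one labelled Mock (3 counts, for counting error only). Unlike the other CPM, these floors use library totals without the TMM adjustment. S100a3 summed to 10 counts in the group labelled STAT6 and to 2 in Mock, with a ratio of 6.10 (95% counting interval 1.30 to 57.3, exact), with 7 of the 10 in STAT6 replicate 3. S100a14 had 3 counts against 0 in Mock and S100a5 had 1 against 0, both at or under the floor of 3 counts. The fused-type S100 genes of the skin barrier, Flg and 6 relatives, were also untested, at a sum of at most 0.309 CPM in a library labelled STAT6 and 0.302 CPM in one labelled Mock. S100pbp, which encodes an S100-binding protein and is no S100 gene itself, did not pass the threshold (log2 fold change 0.08, adjusted p = 0.138).

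Annexins include the membrane-binding partners of S100A10 and S100A11. Of 12 annexin genes 8 were tested, of which 7 were called higher and 0 lower, where 35.8% of all tested genes were called higher and 36.8% lower. The median of their log2 fold changes was 1.17, beside -0.00 over all tested genes. Anxa2, the partner of S100a10, stood at 527, 522 and 526 CPM in the libraries labelled STAT6, against 216, 204 and 222 CPM in Mock (log2 fold change 1.29, SE 0.03, adjusted p = 2.003e-28). Anxa1, Anxa5 and Anxa11 rose by 1.56, 1.40 and 1.42 on the log2 scale, with no overlap between groups. Anxa9 was at -0.06 (adjusted p = 0.641). The ratio of S100a10 to Anxa2 counts was 0.168, 0.163 and 0.159 in the libraries labelled STAT6, against 0.282, 0.317 and 0.294 in Mock, without overlap (exact permutation test, 2-sided, p = 0.1, adjusted 0.12). Ahnak, a giant scaffold that binds the complex of S100A10 and Anxa2, was at 231, 243 and 256 CPM against 73.8, 78.8 and 65.4 CPM in Mock (log2 fold change 1.75, SE 0.07, adjusted p = 3.467e-08).

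S100A10 also binds tissue plasminogen activator, and of 7 genes of the plasminogen system 5 were tested. Of these, 2 passed the filter on low counts only through the libraries labelled STAT6, where they were high. Of the other 3, Plat and Serpine2 were higher and Plaur lower, where 35.8% of all tested genes were called higher and 36.8% lower. Plat, the tissue activator, was at 29.6, 29.9 and 28.9 CPM in the libraries labelled STAT6, against 1.95, 1.81 and 1.90 CPM in Mock (log2 fold change 3.96, SE 0.10, adjusted p = 8.774e-29). The protease inhibitor gene Serpine2 rose by 4.44 on the same scale (adjusted p = 9.991e-32). The urokinase gene Plau, 1 of the 2 tested only through the libraries labelled STAT6, had a log2 fold change of 2.21. Plaur, the urokinase receptor, fell by 0.80 on the log2 scale (adjusted p = 9.093e-07). Plg itself was untested, at 0.0163 CPM in the libraries labelled STAT6 and 0.607 CPM in Mock.

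Of 8 listed receptors that S100 proteins bind from outside the cell 6 were tested, 4 being higher and 1 lower, so 5 of the 6 were called where 72.6% of all tested genes were. Their median log2 fold change was 0.51. Mcam, an adhesion molecule that binds S100A8 and S100A9, rose most (4.39, SE 0.04, adjusted p = 1.941e-42), at 844, 829 and 832 CPM against 42.1, 38.2 and 39.5 CPM in Mock. The genes S100a8 and S100a9 themselves had no count in any library. Basigin (Bsg), another receptor of S100A9, rose by 1.20 on the log2 scale (adjusted p = 8.258e-28) and Nptn by 0.34 (adjusted p = 4.724e-10), whereas Alcam fell by 0.40 (adjusted p = 2.784e-09). Ager, which encodes RAGE, was at 1.30, 1.44 and 1.08 CPM in the libraries labelled STAT6, against 0.781, 0.647 and 0.916 CPM in Mock (log2 fold change 0.68, SE 0.28, adjusted p = 0.0278). That call was lost with DESeq2 (adjusted p = 0.0830), without a filter (0.0824), beyond 1.5-fold (0.574), and on leaving out STAT6 replicate 1 (0.0751) or 2 (0.107) or Mock replicate 1 (0.0634) or 2 (0.107). Tlr4 had a log2 fold change of -0.09 (adjusted p = 0.0665) and passed as lower with library totals alone (-0.17, adjusted p = 0.00120), upper-quartile scaling (-0.11, 0.0317), no filter (-0.11, 0.0392) and without STAT6 replicate 3 (-0.13, 0.0262) or Mock replicate 3 (-0.14, 0.0123).

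**Figure D4:**
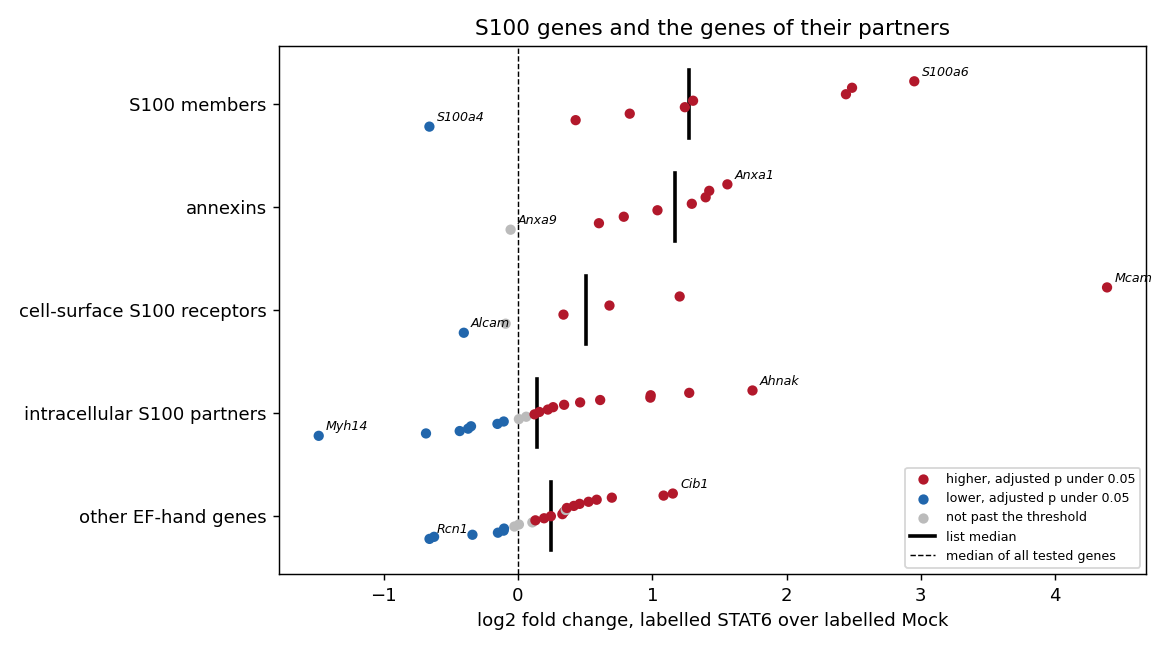
Log2 fold change of each tested gene in 5 lists, with higher, lower and uncalled genes in different colours, the list median as a bar and the median of all tested genes as a dashed line. The bar of the S100 genes (1.27) includes S100a16, that of the annexins is at 1.17, and that of the intracellular partners (0.14) lies near the line of all genes.

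Of 28 listed intracellular partners of S100 proteins 20 were tested, 11 being higher and 7 lower, where 35.8% of all tested genes were called higher and 36.8% lower. Their median log2 fold change was 0.14. Myh9, the non-muscle myosin heavy chain that S100A4 disassembles, was at 691, 735 and 746 CPM in the libraries labelled STAT6, against 440.1, 520 and 462 CPM in Mock (log2 fold change 0.61, SE 0.07, adjusted p = 3.47e-04). Myh14, another non-muscle myosin heavy chain, was at 0.821, 0.928 and 1.96 CPM in the libraries labelled STAT6, against 3.73, 3.49 and 3.14 CPM in Mock. It fell without overlap (log2 fold change -1.48, SE 0.23, adjusted p = 1.314e-06). The ratio of S100a4 to Myh9 counts was 0.00156, 0.00147 and 0.00105 in the libraries labelled STAT6, against 0.00464, 0.00324 and 0.00227 in Mock (exact permutation test, 2-sided, p = 0.1, adjusted 0.12). Ppfibp1, a liprin that S100A4 binds, rose by 0.99 (adjusted p = 1.504e-26), as did Mdm2, whose protein binds several S100 proteins and restrains p53 (1.28, adjusted p = 6.833e-29). Cacybp, named for its binding of S100A6, fell by 0.43 in log2 units (SE 0.03, adjusted p = 6.229e-14), at 179, 171 and 167 CPM against 229, 238 and 233 CPM in Mock. S100a6 and Cacybp thus changed in opposite directions, with a count ratio of 0.111, 0.0991 and 0.107 in the libraries labelled STAT6, against 0.0110, 0.0107 and 0.00898 in Mock (exact permutation test, 2-sided, p = 0.1, adjusted 0.12). As neither gene overlapped between the groups, their ratio could not overlap either, so this test adds nothing to the calls of both. Ppid, a cyclophilin that binds S100A1, fell by 0.69 (adjusted p = 6.181e-17), and Fgf1, the cargo of S100A13, rose by 0.99 (adjusted p = 3.883e-16).

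Of 27 listed genes of other EF-hand proteins 23 were tested, 13 being higher, 6 lower and 4 without a call, beside 72.6% of all tested genes called, 35.8% higher and 36.8% lower. Their median log2 fold change was 0.24. Calu, a calcium-binding protein of the secretory pathway, rose by 1.08 (adjusted p = 2.051e-28) and Cib1, which binds integrins, by 1.15 (adjusted p = 1.468e-19). Of the reticulocalbins, Rcn2 rose by 0.70 (adjusted p = 2.503e-18) and Rcn1 fell by 0.66 (adjusted p = 6.657e-17).

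Genes beside the S100 genes were looked up by symbol in the human gene order of GRCh38.p14, since no mouse annotation was used here. Among tested genes in that order, 7 of the 8 members form 1 unbroken run on human chromosome 1, and S100B stands alone on chromosome 21. Beside the run, Tdrkh (log2 fold change -0.89, adjusted p = 1.434e-16), Chtop (-0.38, adjusted p = 1.629e-10) and Ilf2 (-0.49, adjusted p = 2.458e-12) fell, and Them4 (-0.09, adjusted p = 0.564) did not pass the threshold. Snapin was at -0.13 (adjusted p = 0.0273), a call lost with DESeq2 (adjusted p = 0.0845), beyond 1.5-fold and on leaving out STAT6 replicate 2 (0.127) or 3 (0.0571) or Mock replicate 1 (0.122). Beside S100b, the methyltransferase gene Prmt2 rose by 1.18 (adjusted p = 1.509e-20), Ybey by 0.50 and Dip2a by 0.41. Pcnt was at 0.13 (adjusted p = 0.00975), a call lost with library totals alone (adjusted p = 0.232), beyond 1.5-fold and on leaving out STAT6 replicate 3 (0.111), Mock replicate 1 (0.0774) or Mock replicate 3 (0.0630). In all, 4 of the 10 neighbours were called higher and 4 lower, beside 35.8% and 36.8% of all tested genes.

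**Figure D5:**
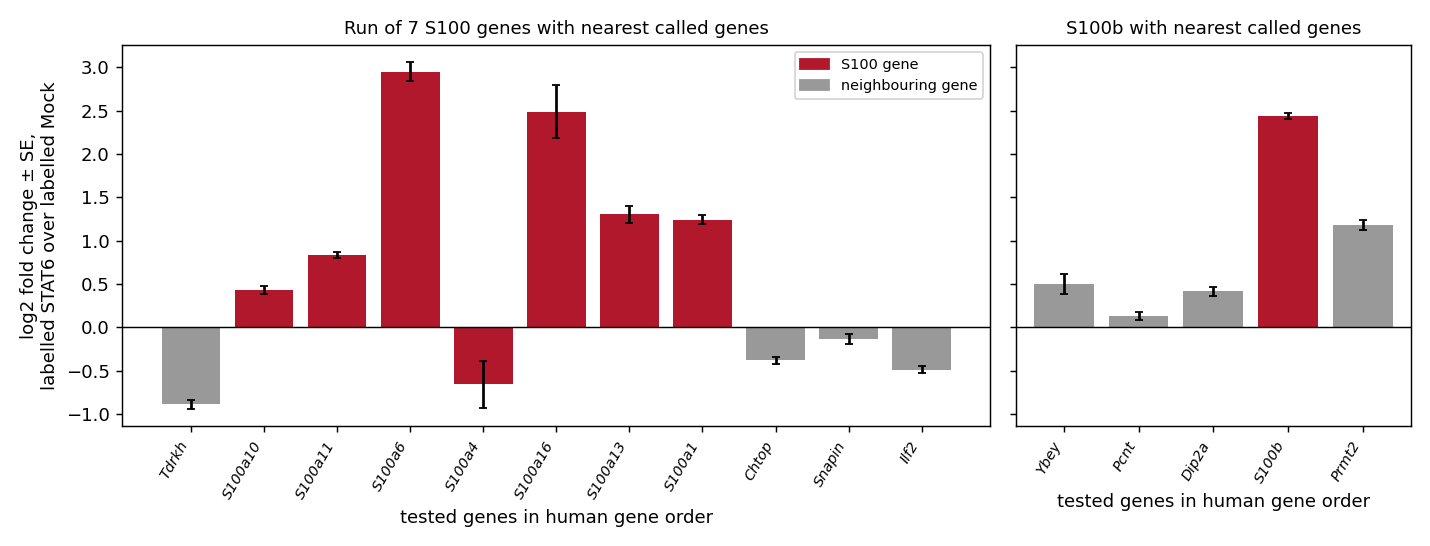
Log2 fold change ± SE of the S100 genes and, of the nearest 3 tested genes on each side in human gene order, those past the threshold, with only 1 such gene beyond S100b before the chromosome's end. The plotted neighbours of the run of 7 lie below 0, between -0.89 and -0.13, and those of S100b lie between 0.13 and 1.18.

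The genes whose profile over the 6 libraries was most like that of S100b were Ehd3, Dusp8 and Dnm1, taken from all 12938 tested genes by the root mean square difference of mean-centred log2 CPM. The differences were 0.0460, 0.0563 and 0.0584, and the log2 fold changes of these genes were 2.40, 2.40 and 2.53. The groups were far apart, so this measure rests mainly on the size of the difference between them.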

How the data were processed

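RNA-seq counts of 6 libraries were used, 3 per group as labelled in the titles. The deposited files give whole-number counts per gene symbol with no normalization. Per the submitters' processing notes, FastQC, STAR, Salmon and edgeR were used with build GRCh37; versions, counter and strand setting: not given in the sources used here. Counts were fitted with edgeR 4.0.16 in R 4.3.3 (filterByExpr by group, TMM, glmQLFit with robust = TRUE, glmQLFTest, 2-sided, group as the only term), with Benjamini-Hochberg adjustment over all 12938 genes tested and a threshold of 0.05. Ratios of counts were compared by exact permutation over 20 assignments, where the smallest possible p is 0.1, so no ratio could pass a threshold of 0.05. Counting intervals are exact and, like floors of 3 counts, cover counting error only.

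Within a group, libraries differed by 1.46 to 2.48 times counting noise (median chi-square), so none looked like a copy of another. Alternatives were other scalings, filters and thresholds, glmTreat, DESeq2 1.42.0, limma-voom (limma 3.58.1), a replicate block and each library left out. The members, gene lists and tests were chosen with earlier results of these data known. Named genes were the 8 members, up to 4 genes of each partner list with the smallest adjusted p, 6 well-known partners, the 3 nearest tested neighbours on each side and the 3 genes most like the leading member. Other genes, such as Stat6, the marker genes, Plau and the untested genes, were named after their values were seen. A few genes under this rule were left out of the text and are not reported here. Mouse sequences were not used here.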

Additional observations from a re-analysis of the deposited data

How the results depend on the processing

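The rise of 6 S100 genes kept its direction under 15 alternatives. The call was kept under all 15 for S100a1, S100a6, S100a11, S100a13 and S100b. S100a10 kept its call under 14 of 15 and lost it beyond 1.5-fold. S100a16 kept both under 15, but was tested in the main fit only through the group where it was high. It is therefore not counted among these 6. S100a4 kept its direction, between -0.92 and -0.45 on the log2 scale, and its call under 9. The number of S100 genes called lower was therefore 0 with DESeq2, limma-voom, glmTreat beyond 1.5-fold and an adjusted p of 0.01, and 0 to 1 when a library was left out, and the cause was not tested. With S100a16 included, the number called higher was 6 beyond 1.5-fold and 7 otherwise. Without S100a16, the main fit called 6 of 7 higher, and 5 passed beyond 1.5-fold. Over all genes, the test beyond 1.5-fold called 2779, 1807 higher and 972 lower, since it asks for a larger change. In that test the calls of Nptn, Alcam, Plaur, Ager, Myh9, Cacybp and Sox10 were lost too. So were those of the neighbours Chtop, Snapin, Ilf2, Ybey, Pcnt and Dip2a. The S100 genes' share of all counts differed by 0.0544 percentage points, by 0.0574 with TMM-adjusted totals (the cause was not tested), and by 0.0537 to 0.0549 when a library was left out. Anxa9 lay between -0.14 and 0.013 when a library was left out, turning without Mock replicate 3. The replicate numbers were not taken as pairs, since the labels state no pairing. Same-numbered libraries' deviations from their group means correlated at 0.052, 0.102 and 0.031, and those of differently numbered libraries at -0.083 to 0.035. Each library labelled STAT6 correlated most with the Mock library of its own number, though weakly. With the replicate block 7 S100 genes, S100a16 included, were called higher and 1 lower, as without the block. Depth limits S100a4 and S100a16, with 62 and 130 counts over the libraries labelled STAT6 and 118 and 28 over those labelled Mock.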
